A study of Mus musculus with 27 samples.

Results

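Day 9 mesenchyme of ES cell-derived hindlimb bud-like tissue (ES–HLB) was compared with that of ES cell-derived forelimb bud-like tissue (ES–FLB). The comparison holds 6 of the 27 RNA-seq libraries of the series, 3 of each type, taken by their sample labels. Both types were grown from 1 mouse ES cell line, EB5 Hand2::GFP +/-, in which a green fluorescent reporter was knocked into 1 of the alleles of Hand2, and both were sorted for that reporter on day 9 from pooled aggregates. The cultures shared BMP4 and matrigel on days 1 to 5 and, later, the BMP inhibitor LDN193189, Wnt3 and hydrocortisone. ES–FLB received retinoic acid (RA) on days 5 to 6, and ES–HLB received AGN193109, an RA antagonist (RAA), on days 6 to 6.5. Each difference is therefore one between these 2 treatments in 1 cell line, and the effect of RA cannot be told apart from that of the RAA, since no library used here had neither. Early forelimb and hindlimb buds (FLBs and HLBs) of Slc:ICR mouse embryos, 3 libraries each and unsorted, were used as the reference in vivo. The labels give E10.0 for both. The text of the study puts the early FLBs at an earlier stage than the early HLBs, so limb type and stage cannot be told apart in that reference. FLBs and HLBs of E10.5 embryos, 3 libraries each, served as a second reference for a few results. In 1 of these HLB libraries 8489 values were set to missing.

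Forelimb and hindlimb buds arise from lateral plate mesoderm at different levels of the trunk, and the mesenchyme keeps a record of its level in the Hox genes it transcribes. Tbx5 marks the forelimb field, and Isl1, Pitx1 and Tbx4 mark the hindlimb field. RA, made from vitamin A in the trunk mesoderm, is present at the forelimb level and is broken down by Cyp26 enzymes toward the tail. Once the buds grow, FGFs of the apical ridge and Shh of the posterior margin pattern the mesenchyme, and BMP and Wnt signals act along the other axes.

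Values are CPM, read counts per gene set to a common library total and scaled between libraries, and are given in the order of replicates 1 to 3. They rest on an estimated 6569890 to 7879910 reads per ES–LB library, in which 3 reads are worth 0.353 to 0.416 CPM. Differences are log2 fold changes of ES–HLB against ES–FLB on the scale log2(CPM + 0.5), with their standard errors (SE), and a gene is called where its adjusted p is below 0.05 (limma over all genes tested, Benjamini-Hochberg). Adding 0.5 makes the changes of low genes look smaller than they are. Libraries of the same type correlated at r of 0.992 to 0.994 across genes, and nothing in the labels says that they came from separate cultures, so p-values measure the spread between these libraries, which may be technical. CPM of different genes are not compared with each other, since they are not set per length.

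The limb-type selectors separated the cultures. Tbx5, the T-box factor of the forelimb field (chr5:119796514-119885220, GRCm38), had 70.7, 66.3 and 71.8 CPM in ES–FLB and 4.01, 2.22 and 3.06 CPM in ES–HLB. Its hindlimb counterpart Tbx4 (chr11:85886367-85916097) had 4.06, 3.60 and 1.20 CPM in ES–FLB and 60.5, 57.2 and 48.2 CPM in ES–HLB. Pitx1, the homeobox factor that acts upstream of Tbx4 in the hindlimb (chr13:55825044-55836190), had 8.84, 6.04 and 6.95 CPM and 72.6, 63.8 and 69.8 CPM in the same order. The libraries of the 2 types did not overlap for any of the 3 genes, and the library with the least Tbx4 in ES–FLB still held more than the floor of 3 reads. The log2 fold changes were -4.31 ± 0.13 for Tbx5 (adjusted p = 2.8e-20), 4.13 ± 0.45 for Tbx4 (adjusted p = 0.0040) and 3.17 ± 0.11 for Pitx1 (adjusted p = 1.9e-21). Isl1, the LIM homeobox factor that precedes Tbx4 in the hindlimb field, differed far less. It had 23.4, 25.9 and 19.6 CPM in ES–FLB and 30.2, 30.9 and 29.2 CPM in ES–HLB, without overlap (log2 fold change 0.39 ± 0.10, adjusted p = 0.0020), against a log2 fold change of 3.02 between the early limb buds, and the difference between these 2 contrasts passed its own test (adjusted p = 9.2e-08). The in vitro call of Isl1 was lost when all 27 libraries shared 1 estimate of the spread (adjusted p = 0.23 by limma) and without the trend and robust options of limma (adjusted p = 0.0505).

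Tbx15, Aldh1a2 and Mab21l2, set down as markers of this comparison with earlier results of these data in view, differed without overlap. Tbx15 (chr3:99240348-99354260), a T-box factor of skeletal and dermal mesenchyme, had 6.69, 8.86 and 9.46 CPM in ES–FLB and 114, 112 and 105.2 CPM in ES–HLB, 13.2 times as much by the group means (log2 fold change 3.66 ± 0.10, adjusted p = 9.6e-24). Aldh1a2 (chr9:71215789-71296243), the enzyme that makes RA in trunk mesoderm, ran the other way with 172, 165 and 161 CPM in ES–FLB and 28.8, 29.98 and 32.2 CPM in the ES–HLBs (log2 fold change -2.44 ± 0.06, adjusted p = 1.8e-25). Mab21l2 (chr3:86546050-86548283), a gene of limb, eye and body wall mesenchyme, had 138, 121 and 129 CPM and 393, 384 and 407 CPM (log2 fold change 1.61 ± 0.05, adjusted p = 5.0e-24). Part of its exons lies opposite an exon of Lrba, and the strand setting of the authors' counting is not given in the sources used here. In the early limb buds only Tbx15 of the 3 was called, also higher in HLBs (log2 fold change 1.88, adjusted p = 0.045). Aldh1a2 and Mab21l2 had early limb bud log2 fold changes of 0.48 (adjusted p = 0.23) and -0.62 (adjusted p = 0.20), opposite in sign to those in vitro, and for both the in vitro and in vivo contrasts differed by the test of the difference (adjusted p = 4.9e-05 and 0.0014).

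**Figure D1:**
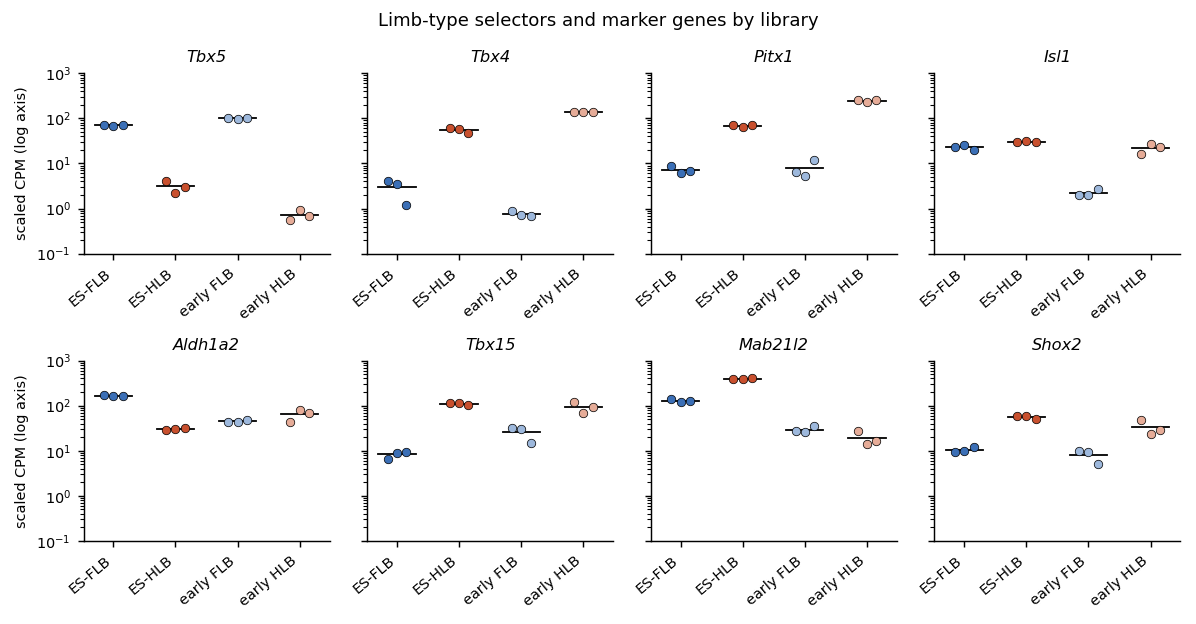
Scaled CPM (log axis) of 4 limb-type selectors and 4 other genes in each library, with points for libraries and a line at the mean of each group. Tbx5 and Aldh1a2 are lower and the other 6 genes higher in the 3 ES–HLB libraries, and the gap for Isl1 is small in vitro and wide between the early limb buds.

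Of 13132 genes tested, 3256 were called between ES–HLB and ES–FLB (24.8%), 1631 of them higher (12.4%) and 1625 lower (12.4%) in ES–HLB. Counts of list genes called higher or lower in ES–HLB are to be read beside these shares. Most of the differences were small. The called genes that were also 2-fold or more apart were 353 on the higher side (2.69%) and 245 on the lower side (1.87%), and 53 and 49 were 4-fold or more apart. The libraries of the types did not overlap for 36.9% of all genes tested, and the median log2 fold change of all genes was -0.002. Genes with at least 16 CPM in the higher type and no overlap were ranked by size, and the 15 leading genes of each direction are named here. On the higher side these were Hbb-bh1, Fmod, Hba-x, Tbx4, Tbx15, Pitx1, Hbb-y, Zic2, Apob, Kcnk3, Hoxa11as, Trh, Hoxa11, Shox2 and Tdh. The lower side was led by Rxfp2, Tbx5, Hoxa5, Hoxc5, Hoxb5, Foxf2, Pappa2, Foxf1a, Aldh1a2, Foxl1, Shisa2, Nepn, Hoxc4, Cldn11 and Rspo1. The first list holds 3 embryonic globins beside its selectors, and the second holds Hox genes of paralog groups 4 and 5.

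Several of these leading genes have no place in the groups that follow. Rxfp2, a receptor for relaxin-family peptides, had 32.4, 30.9 and 26.7 CPM in ES–FLB and 1.25, 0.555 and 1.41 CPM in the ES–HLBs (log2 fold change -4.32 ± 0.18, adjusted p = 1.1e-18). Kcnk3, a potassium channel of the leak type, had 3.22, 3.47 and 1.44 CPM and 18.9, 15.4 and 21.9 CPM (log2 fold change 2.64 ± 0.24, adjusted p = 7.9e-07). Trh, which encodes the precursor of thyrotropin-releasing hormone, had 3.82, 4.62 and 5.87 CPM and 22.9, 34.4 and 29.1 CPM (log2 fold change 2.47 ± 0.15, adjusted p = 5.3e-14). The libraries of the types did not overlap for these genes, which the ranking required of every leading gene. Tdh, a threonine dehydrogenase used by mouse ES cells, was higher in ES–HLB at 12.9, 18.0 and 19.8 CPM against 2.51, 2.44 and 3.71 CPM. Pappa2, a protease that cleaves IGF-binding proteins, was lower at 6.01, 4.72 and 5.18 CPM against 31.2, 34.3 and 40.4 CPM (log2 fold change -2.62 ± 0.12, adjusted p = 2.1e-18). Shisa2, which holds back Wnt and FGF receptors, fell from 72.4, 74.1 and 58.3 CPM to 13.03, 11.5 and 12.96 CPM. The tight junction gene Cldn11 and the small leucine-rich repeat gene Nepn were lower (log2 fold changes of -2.22 and -2.30), and Nepn missed the threshold without ES–HLB replicate 2 (log2 fold change -2.24, adjusted p = 0.051 by limma).

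**Figure D2:**
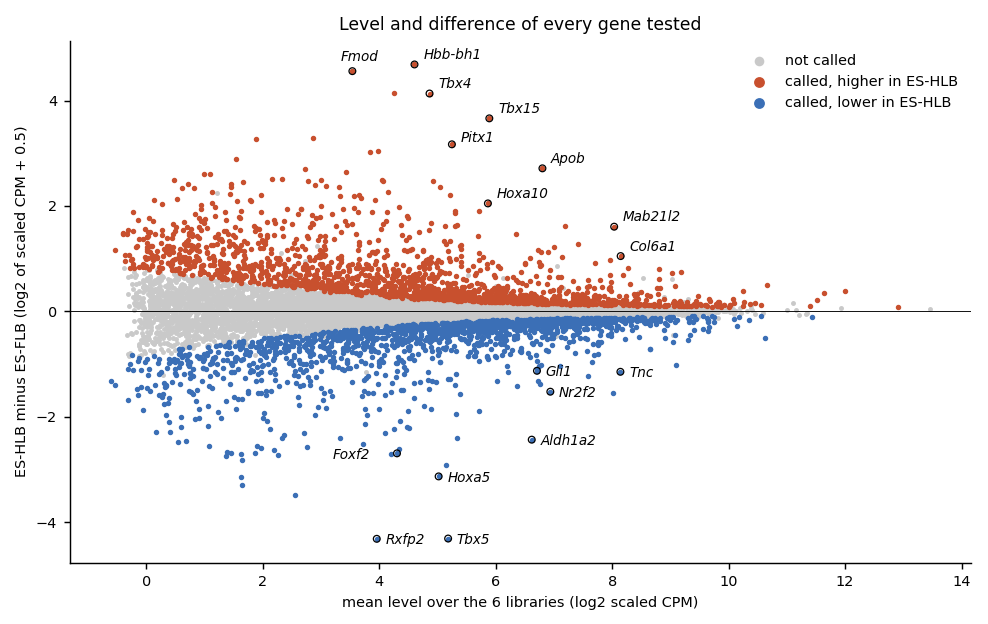
Mean level over the 6 ES–LB libraries (log2 of scaled CPM) against the log2 fold change of ES–HLB against ES–FLB for the 13132 genes tested, with called genes in colour and 17 genes named. The called genes lie on both sides of 0 in similar numbers, 1631 higher and 1625 lower, and Tbx4, Tbx15, Tbx5 and Rxfp2 stand near the edges.

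The Hox genes divided by their paralog number. Hox proteins of groups 1 to 8 are used along the neck and trunk and those of groups 9 to 13 toward the tail and in the distal limb. Of the 21 tested genes of groups 1 to 8, 19 were lower in ES–HLB, 0 were higher and 2 were not called, with a median log2 fold change of -1.30. Of the 13 tested genes of groups 9 to 13, 11 were higher, 0 were lower and 2 were not called, with a median of 2.06. Of these, Hoxa13, Hoxc11, Hoxd10, Hoxd11 and Hoxd12 averaged under 1 CPM in ES–FLB and were kept for the test by their ES–HLB values, so their place among the higher genes follows in part from the filter and the count is given as a description. When any 1 ES–HLB library was left out, the genes called higher fell from 3 to 1 in the Hoxc cluster and from 4 to 2 in the Hoxd cluster. Those fits still asked for 1 CPM in 3 libraries. Genes under 1 CPM in every ES–FLB library could then not be tested, so the fall follows in part from the filter. In the Hoxa cluster the direction changed between paralogs 7 and 9, in Hoxc between 8 and 9, and in Hoxd between 8 and 10, with Hoxd9 not called.

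Hoxa5 had 59.5, 58.0 and 58.5 CPM in ES–FLB and 5.64, 6.52 and 6.60 CPM in the ES–HLBs (log2 fold change -3.13 ± 0.10, adjusted p = 6.4e-23). Hoxc5 had 68.2, 55.6 and 66.1 CPM and 7.52, 8.74 and 7.66 CPM (log2 fold change -2.91 ± 0.10, adjusted p = 3.9e-22), and Hoxb5 34.9, 31.6 and 30.9 CPM and 5.01, 4.58 and 4.12 CPM (log2 fold change -2.702 ± 0.12, adjusted p = 7.5e-19). Group 5 held the widest drop in each of these clusters. No library of one type reached a library of the other, which the ranking required of these leading genes. The neighbours moved less, with log2 fold changes of -2.31 for Hoxa4, -1.79 for Hoxb4, -2.23 for Hoxc4, -2.08 for Hoxb6 and -2.08 for Hoxc6. Hoxb3, which shares exon bases with an antisense gene, had 119.8, 119.8 and 121 CPM and 43.7, 42.6 and 46.9 CPM (log2 fold change -1.43 ± 0.06, adjusted p = 1.3e-19). The Hoxd genes of the front groups stood out, since Hoxd3 and Hoxd4 were not called, with 4.66, 2.18 and 4.43 CPM of Hoxd4 in ES–FLB and 3.38, 4.44 and 3.30 CPM in ES–HLB. Both were low, and they share exon bases with each other and with another gene on the same strand, so their levels are uncertain.

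At the other end, Hoxa10 had 24.2, 20.3 and 22.9 CPM in ES–FLB and 95.6, 92.0 and 95.1 CPM in the ES–HLBs (log2 fold change 2.05 ± 0.07, adjusted p = 1.9e-21). Hoxa11, the gene of the middle limb segment, had 8.84, 10.3 and 7.79 CPM and 53.1, 53.4 and 48.8 CPM (log2 fold change 2.47 ± 0.10, adjusted p = 5.6e-20). Its antisense partner Hoxa11as had 5.13, 4.62 and 4.07 CPM and 32.2, 30.3 and 23.0 CPM, and because the 2 overlap and the strand setting is not known, reads of either may be counted for the other. Hoxc10, a gene of the hindlimb level, had 5.49, 5.14 and 5.51 CPM and 27.8, 23.0 and 23.8 CPM (log2 fold change 2.11 ± 0.13, adjusted p = 1.2e-15), a difference that was smaller in vitro than the 7.44 between the early limb buds (adjusted p of the difference 3.8e-15). The 5′ Hoxd genes, which respond to Shh in the limb, were low in both types and higher in ES–HLB, with 1.43, 2.05 and 1.80 CPM of Hoxd13 in ES–FLB and 10.53, 14.3 and 11.2 CPM in the ES–HLBs (log2 fold change 2.46 ± 0.18, adjusted p = 4.0e-13). Hoxd10, Hoxd11 and Hoxd12 had log2 fold changes of 2.37, 2.06 and 2.12. Hoxc13 was listed at 0 in the 3 ES–FLB libraries and at 0.627, 0.971 and 1.06 CPM in ES–HLB, too low to be tested. The Hoxb cluster had no called gene in the higher direction, and Hoxb9 was not called at 5.25, 4.37 and 5.51 CPM and 5.76, 6.52 and 6.24 CPM.

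**Figure D3:**
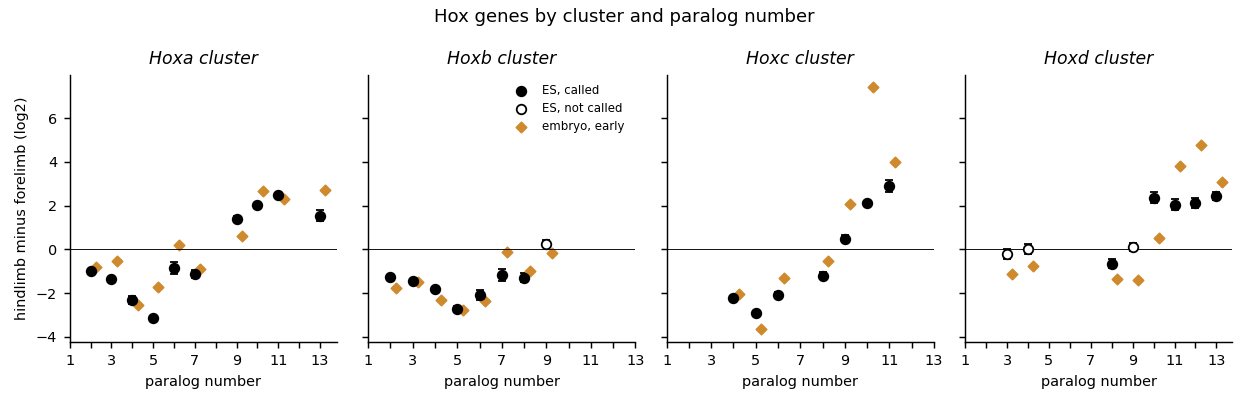
Log2 fold change of Hox genes tested against their paralog number, by cluster, for ES–HLB against ES–FLB (circles with SE, filled where called) and for early HLBs against early FLBs (diamonds, drawn without error bars and also where not called). Circles of paralogs 2 to 8 lie below or near 0 and those of paralogs 9 to 13 near or above it.

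The partners of the Hox proteins leaned to ES–FLB. Meis and Pbx proteins are homeobox cofactors that mark the proximal limb, and Meis genes respond to RA. Of the 9 tested, 4 were lower in ES–HLB and 0 were higher. Meis1 had 249.7, 253 and 244 CPM in ES–FLB and 162, 157 and 164 CPM in the ES–HLBs (log2 fold change -0.62 ± 0.04, adjusted p = 9.6e-14), and Meis3 and Pbx3 were also lower (log2 fold changes of -0.51 and -0.55). Meis2 had 331, 344 and 311 CPM and 307, 305 and 304 CPM and was not called, but was called lower without ES–FLB replicate 3 (adjusted p = 0.026 by limma).

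Genes of RA metabolism differed in both directions. Of the 29 genes on the list 22 were tested, 11 of them lower, 5 higher and 6 not called, with a median log2 fold change of -0.25. Of the 5 tested genes filed as response genes 3 were lower, among them Meis1 and Nrip1 (log2 fold changes of -0.62 and -0.26), 0 were higher and 2 were not called. Cyp26a1 and Dhrs3, which also respond to RA but are filed under breakdown and synthesis, were higher, so RA-responsive genes went both ways. Nrip1 lost its call without ES–HLB replicate 1 or 2 or ES–FLB replicate 1 or 3 (adjusted p of 0.083, 0.13, 0.081 and 0.18 by limma). The enzymes that make RA and were tested, Aldh1a2, Rdh10 and Aldh1a3, were all 3 lower in ES–HLB. Besides Aldh1a2 these were Rdh10, the retinol dehydrogenase of the step before it, with 71.3, 85.1 and 75.5 CPM in ES–FLB and 50.1, 51.9 and 47.1 CPM in the ES–HLBs (log2 fold change -0.63 ± 0.07, adjusted p = 5.5e-09), and Aldh1a3, with a log2 fold change of -0.95 (adjusted p = 2.3e-06). Aldh1a1 was not tested, with 0.716, 1.54 and 2.04 CPM in ES–FLB and 0, 0 and 0.118 CPM in ES–HLB.

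The genes that lower RA went the other way. Cyp26a1, which oxidises RA, had 0.836, 0.899 and 0.240 CPM in ES–FLB, near the floor of 3 reads, and 5.26, 6.66 and 5.06 CPM in the ES–HLBs (log2 fold change 2.46 ± 0.25, adjusted p = 1.1e-09). Dhrs3, which the list holds under synthesis and which turns retinaldehyde back to retinol, had 1.43, 1.28 and 1.44 CPM and 12.03, 12.9 and 10.48 CPM (log2 fold change 2.703 ± 0.18, adjusted p = 3.5e-14). Both genes are known to be switched on by RA in many cells, and both were higher on day 9 in the cultures that had received the antagonist. In the early limb buds Cyp26a1 was lower in HLBs (log2 fold change -1.17, adjusted p = 0.0037), and the difference between the contrasts passed its test (adjusted p = 3.1e-07). Cyp26b1, the Cyp26 gene of the limb mesenchyme, had 25.3, 23.2 and 29.7 CPM and 28.6, 33.4 and 30.6 CPM and missed the threshold (adjusted p = 0.054), which it passed without ES–HLB replicate 1 or ES–FLB replicate 3 (adjusted p of 0.039 and 0.013 by limma).

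Among the proteins that carry or take up retinoids, the retinol receptor Stra6 was lower, with a log2 fold change of -0.72. Crabp1 and Rbp4 were higher, and for Crabp1 the values were 184, 180.0 and 167 CPM and 274, 255 and 272 CPM (log2 fold change 0.59 ± 0.05, adjusted p = 1.6e-12). Neither of these 2 was called with all 27 libraries in 1 model (adjusted p of 0.33 and 0.24 by limma). None of the 6 RA and retinoid X receptors was higher, and Rara, Rxra and Rxrg were lower (log2 fold changes of -0.36, -0.35 and -0.89). Rarb, a receptor gene that is itself a target of RA, had 8.60, 9.12 and 8.27 CPM in ES–FLB and 6.89, 6.52 and 8.24 CPM in ES–HLB and was not called (adjusted p = 0.23). It lies opposite to Top2b over part of its exons.

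The promoters of Cyp26a1 and Rarb are printed because they were the only promoters on the RA list that held the letters of an RA response element of the DR5 type. The search was for 2 half-sites, each reading AGGTCA, or with T as the third base, G as the first base, or both, with 5 bases between them, on both strands, in RefSeq promoters of 300 bases (250 before to 50 after the gene start, GRCm38.p6). A match was found in 32 of 32851 promoters (0.0974%) and in 2 of the 20 genes of the RA list with a promoter. Half-sites are in capitals. The first promoter is at chr19:37697558-37697857 on the plus strand, and its match spans positions -32 to -16 from the gene start and reads on the opposite strand. The second is at chr14:16575427-16575726 on the minus strand of the genome, with a match from -53 to -37 that reads along the gene.
Cyp26a1: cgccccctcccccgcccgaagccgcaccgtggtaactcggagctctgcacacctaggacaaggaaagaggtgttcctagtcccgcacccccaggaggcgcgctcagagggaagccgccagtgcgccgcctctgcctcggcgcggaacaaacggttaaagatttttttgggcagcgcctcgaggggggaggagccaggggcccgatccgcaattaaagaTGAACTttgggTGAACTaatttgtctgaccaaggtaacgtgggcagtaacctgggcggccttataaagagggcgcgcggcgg
Rarb: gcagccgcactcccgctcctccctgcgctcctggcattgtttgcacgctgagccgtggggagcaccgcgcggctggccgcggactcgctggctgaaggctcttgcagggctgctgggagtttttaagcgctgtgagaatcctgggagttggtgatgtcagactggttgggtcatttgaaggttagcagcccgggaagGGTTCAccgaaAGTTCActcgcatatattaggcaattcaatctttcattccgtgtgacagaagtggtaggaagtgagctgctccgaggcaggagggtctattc
Of the 5 genes with such a match that were tested, 2 were higher and 0 were lower in ES–HLB. Of all genes tested 12.4% were called in each direction. The genes with the same letters thus did not share one direction, as Cyp26a1 was higher and Rarb was not called. A match describes these letters only.

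T-box factors other than the selectors also differed. Of the 12 on the list 6 were tested, 3 of them higher, 2 lower and 1 not called. Tbx3, a factor of the anterior and posterior limb margins, had 153, 157 and 145 CPM in ES–FLB and 53.4, 63.4 and 64.5 CPM in the ES–HLBs (log2 fold change -1.32 ± 0.06, adjusted p = 1.5e-17). Its relative Tbx2 was lower too, from 422, 396 and 410.2 CPM to 289.7, 290.3 and 300.001 CPM (log2 fold change -0.48 ± 0.04, adjusted p = 4.0e-12). Tbx20 and Eomes, both low, were higher (log2 fold changes of 0.89 and 2.34).

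Of 43 tested transcription factors and regulators known from limb mesenchyme, 22 were higher in ES–HLB, 15 were lower and 6 were not called, with a median log2 fold change of 0.25. Shox2, the homeobox factor of the proximal skeleton, had 9.31, 10.02 and 12.2 CPM in ES–FLB and 58.1, 57.9 and 51.5 CPM in the ES–HLBs (log2 fold change 2.36 ± 0.10, adjusted p = 8.9e-20). The paired-type homeobox genes Alx1 and Alx4 were lower, with log2 fold changes of -1.38 and -0.67.

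The Iroquois factors Irx1, Irx3 and Irx5, which mark the anterior and proximal limb, were higher (log2 fold changes of 0.84, 1.13 and 0.69), and Irx3 had 71.2, 69.5 and 65.4 CPM in ES–FLB and 156, 154 and 143 CPM in ES–HLB. Prrx1, the general limb mesenchyme factor, had 443, 457 and 459 CPM and 631, 643 and 621 CPM (log2 fold change 0.48 ± 0.03, adjusted p = 2.0e-13), whereas Prrx2 was lower (log2 fold change -0.84). Msx1 was higher (log2 fold change 0.83) and Msx2 lower (log2 fold change -0.60). Hand2, the gene by which the cells were sorted, had 159.6, 163 and 139 CPM and 241, 217 and 237 CPM (log2 fold change 0.59 ± 0.05, adjusted p = 6.1e-10), so the sorted cells of the types differed in the sort gene itself, and the part of this in the other results was not tested. Lmx1b, the factor of the dorsal mesenchyme, did not reach 1 CPM in enough libraries to be tested, with 0.836, 0.514 and 1.92 CPM and 1.13, 0.416 and 0.589 CPM.

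Factors of visceral and proepicardial lateral plate mesoderm leaned to ES–FLB. Of the 23 tested 12 were lower in ES–HLB, 4 were higher and 7 were not called, with a median log2 fold change of -0.60. Foxf1a, a forkhead factor of gut and lung mesenchyme, had 24.2, 19.8 and 24.1 CPM in ES–FLB and 3.88, 2.91 and 3.89 CPM in the ES–HLBs (log2 fold change -2.52 ± 0.14, adjusted p = 5.0e-16). Foxf2 had 29.0, 33.6 and 41.2 CPM and 4.01, 4.86 and 5.89 CPM (log2 fold change -2.696 ± 0.14, adjusted p = 6.6e-17), and Foxl1 12.3, 16.4 and 23.4 CPM and 2.51, 2.91 and 2.94 CPM (log2 fold change -2.40 ± 0.18, adjusted p = 1.1e-12). These 3 forkhead genes are known targets of hedgehog signals in the gut wall. All 3 are among the leading genes, for which the ranking required no overlap.

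Nr2f2, an orphan nuclear receptor of mesenchyme and veins, had 183, 180.2 and 184 CPM and 64.0, 59.7 and 65.3 CPM (log2 fold change -1.53 ± 0.05, adjusted p = 8.6e-22). Gata4 and Hlx, regulators of the heart and gut mesoderm, were lower (log2 fold changes of -1.50 and -2.35). Gata6 had 83.3, 75.0 and 68.2 CPM and 69.9, 56.3 and 68.9 CPM and was not called, a result that depended on the setting, as it was called lower for the CPM as deposited, with the replicate block, and without ES–HLB replicate 1, ES–HLB replicate 3 or ES–FLB replicate 3 (adjusted p of 0.048, 0.0022, 0.030, 0.047 and 0.0092 by limma). Hand1, Tbx20, Nkx2-3 and Isl1 were the 4 genes of the list that were higher. For Hand1, a factor of extraembryonic and ventral mesoderm, the values were 5.13, 3.60 and 3.23 CPM and 20.8, 18.9 and 19.2 CPM (log2 fold change 2.19 ± 0.15, adjusted p = 5.5e-14).

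The hedgehog genes went in both directions. Of 17 tested, 7 were lower and 6 higher in ES–HLB. The receptors and co-receptors had 3 higher and 3 lower of 8, and the effectors and targets 3 and 3 of 7. The lower genes were Shh itself and genes that a hedgehog signal switches on. Gli1, the transcriptional readout of the pathway, had 141, 140.2 and 149.5 CPM in ES–FLB and 58.0, 69.0 and 69.7 CPM in the ES–HLBs (log2 fold change -1.13 ± 0.06, adjusted p = 5.0e-16). Ptch1, the receptor that is induced as feedback, had 131, 137 and 161 CPM and 67.7, 60.2 and 71.7 CPM (log2 fold change -1.096 ± 0.07, adjusted p = 2.7e-11). Hhip, a decoy receptor, was lower (log2 fold change -1.13). Grem1, the BMP antagonist that relays Shh to the apical ridge, had 23.3, 28.4 and 24.3 CPM and 7.14, 6.94 and 5.77 CPM (log2 fold change -1.86 ± 0.12, adjusted p = 2.6e-14). Shh was low in both types, with 1.91, 2.18 and 5.27 CPM and 1.38, 0.971 and 1.53 CPM (adjusted p = 0.014), and its call was lost without ES–FLB replicate 3 (log2 fold change -0.52, adjusted p = 0.24 by limma) or ES–HLB replicate 2 (log2 fold change -0.77, adjusted p = 0.075).

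The higher hedgehog genes were the co-receptors Cdon, Boc and Gas1, which are repressed by the signal in many tissues, the factors Gli2 and Gli3, and Hoxd13, which the signal also switches on in the limb. With all 27 libraries in 1 model the higher genes were 3, as Boc, Gas1 and Gli2 were no longer called (adjusted p of 0.21, 0.15 and 0.21 by limma), and Boc was not called without the trend and robust options either (adjusted p = 0.064). Cdon had 152, 131 and 149.6 CPM and 195, 192 and 198 CPM (log2 fold change 0.44 ± 0.05, adjusted p = 1.8e-08), and Gas1 was higher (log2 fold change 0.28). The transducer Smo had 235, 231 and 234 CPM and 219, 214 and 229 CPM (adjusted p = 0.19). In the early limb buds Gli1, Ptch1 and Grem1 were higher in HLBs, with log2 fold changes of 2.46, 0.59 and 1.48, opposite to the direction in vitro, and each of the 3 passed the test of the difference between the contrasts (adjusted p of 3.1e-04, 1.5e-06 and 1.9e-04). At E10.5, where limb buds of both types carry the same stage in the labels and in the text of the study, Gli1 and Ptch1 had log2 fold changes of 0.03 and 0.16 and were not called (adjusted p of 0.78 and 0.062), while Grem1 was higher in HLBs (log2 fold change 0.59, adjusted p = 3.3e-06).

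FGF response genes were mostly higher in ES–HLB. Of the 12 tested response and feedback genes 9 were higher, 1 was lower and 2 were not called, with a median log2 fold change of 0.64. Of all genes tested 12.4% were higher and 12.4% lower. Spry2, a feedback inhibitor of the receptor pathway, had 26.7, 26.1 and 24.8 CPM in ES–FLB and 57.1, 56.3 and 64.4 CPM in the ES–HLBs (log2 fold change 1.18 ± 0.08, adjusted p = 2.2e-14). Etv5, an ETS factor downstream of FGF, had 30.6, 35.1 and 33.3 CPM and 64.2, 75.6 and 76.1 CPM (log2 fold change 1.11 ± 0.08, adjusted p = 5.7e-14). Dusp6, the phosphatase that resets ERK, had 118, 117 and 115 CPM and 155, 162 and 165 CPM (log2 fold change 0.46 ± 0.05, adjusted p = 3.2e-09). Spry1, Spry4, Dusp4, Il17rd and Etv4 were also higher (log2 fold changes of 0.99, 0.97, 0.93, 0.68 and 0.60), and Etv1 was the lower gene (log2 fold change -0.38).

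The ligands did not follow one direction. Fgf10, the mesenchymal FGF that starts limb outgrowth, was lower in ES–HLB with 15.8, 17.2 and 18.4 CPM against 27.5, 30.8 and 24.8 CPM (log2 fold change -0.67 ± 0.10, adjusted p = 2.3e-06). Fgf15 was higher at 40.0, 29.0 and 35.5 CPM against 9.79, 8.35 and 10.54 CPM (log2 fold change 1.81 ± 0.12, adjusted p = 1.5e-14), and Fgf4 and Fgf5, which ES and epiblast cells express, were higher at low levels (3.51, 2.78 and 3.18 CPM and 3.51, 2.78 and 2.12 CPM in ES–HLB). Fgf8 of the apical ridge was too low to be tested. Of the receptors, Fgfr1 had 514, 503 and 506 CPM and 498, 512 and 516 CPM and was not called, Fgfr2 was lower (log2 fold change -0.69) and Fgfr3 higher (log2 fold change 0.81). Spry1, Spry2, Spry4 and Etv5 had early limb bud log2 fold changes of -0.02, -0.10, -0.08 and 0.16, none of them called.

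**Figure D4:**
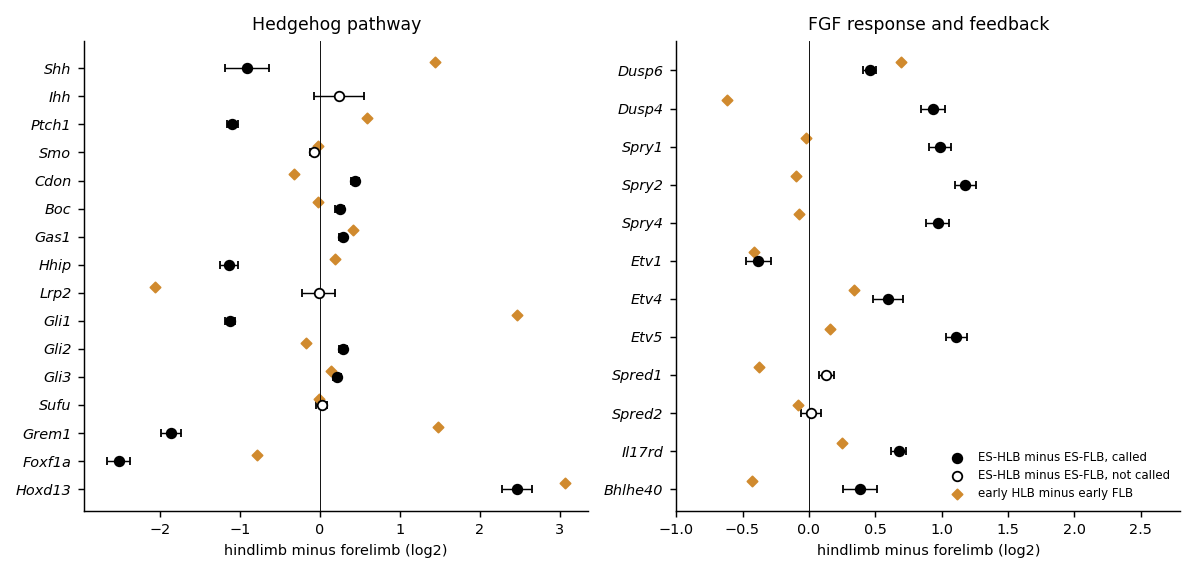
Log2 fold change of hindlimb against forelimb for 16 of the hedgehog genes tested (left) and the 12 FGF response and feedback genes (right), with circles and SE for the ES–LBs, filled where called, and diamonds for the early limb buds, drawn without error bars and also where not called. Gli1, Ptch1 and Grem1 lie on opposite sides of 0 in vitro and in vivo, and 9 FGF response genes lie above 0 in vitro.

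BMP genes were lower more often than higher, 17 against 9 of 34 tested, where 12.4% of all genes were called in each direction. Bmp4, the main ligand of the limb mesenchyme, had 193, 192 and 172 CPM in ES–FLB and 89.8, 87.6 and 92.5 CPM in the ES–HLBs (log2 fold change -1.04 ± 0.05, adjusted p = 2.2e-17). Bmp7 and Bmp2 were higher (log2 fold changes of 0.72 and 0.82), and Gdf6 was lower (log2 fold change -1.001). The antagonists split, as Grem1 and Nog were lower (log2 fold changes of -1.86 and -1.15) and Smoc1, Chrdl1, Nbl1 and Fst were higher (log2 fold changes of 1.51, 1.06, 0.92 and 0.56). Of the 9 target genes 5 were lower, 1 was higher and 3 were not called. Id2 and Id3, direct readouts of BMP signals, were lower (log2 fold changes of -0.42 and -0.36), and Id3 had 188, 185 and 190.0 CPM and 146, 148 and 145 CPM. Msx1 was the target that was higher.

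Wnt genes were higher in 11 and lower in 8 of 35 tested, a mixture in which the R-spondins stood out. R-spondins bind Lgr receptors and raise the response to Wnt. Rspo1 had 39.8, 36.0 and 35.3 CPM in ES–FLB and 7.39, 7.49 and 8.13 CPM in the ES–HLBs (log2 fold change -2.20 ± 0.11, adjusted p = 4.8e-18). Rspo2, which the ridge and the mesenchyme of the limb use, had 40.8, 46.1 and 41.0 CPM and 16.5, 13.6 and 14.8 CPM (log2 fold change -1.48 ± 0.09, adjusted p = 7.5e-15). Rspo4 and Lgr5 were lower (log2 fold changes of -2.57 and -1.08), and Rspo3 and Lgr4 higher (log2 fold changes of 0.66 and 0.44). The targets were mixed too. Axin2 and Lef1 were not called, at 144, 155 and 163 CPM and 151, 181 and 162 CPM for Axin2, while Sp5, Notum and Tcf7 were higher (log2 fold changes of 1.24, 0.63 and 0.57) and Ccnd1 was lower (log2 fold change -0.57). The antagonists Frzb and Wif1 changed in opposite directions, from 59.8, 68.6 and 63.7 CPM to 132, 124 and 132 CPM for Frzb and from 27.2, 28.9 and 31.7 CPM to 12.5, 13.9 and 14.8 CPM for Wif1. Wnt5a, the ligand of distal outgrowth, was higher (log2 fold change 0.28).

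Among 23 tested genes of TGF-beta and activin signalling 9 were lower and 3 higher. Tgfb2 had 277, 269 and 264 CPM in ES–FLB and 114, 109 and 121 CPM in the ES–HLBs (log2 fold change -1.23 ± 0.05, adjusted p = 9.7e-21). Tgfb3, Inhba and the latency and response genes Ltbp3 and Tgfbi were lower (log2 fold changes of -0.52, -0.95, -0.74 and -0.80). The 15 Notch genes tested had 5 higher and 5 lower, with Hey2 higher (log2 fold change 1.72) and Heyl lower (log2 fold change -1.12). Of 13 IGF genes 5 were higher and 5 lower. Igf1, the growth factor, had 95.2, 101 and 103 CPM and 225, 243 and 257 CPM (log2 fold change 1.27 ± 0.05, adjusted p = 3.4e-20), in the same direction as in the early limb buds (log2 fold change 2.29, adjusted p = 1.4e-07).

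Among genes of guidance and adhesion the share called varied by family. Of 25 axon guidance genes 12 were lower and 2 were higher in ES–HLB. Sema3c and the netrin receptor Dcc were lower (log2 fold changes of -1.55 and -1.12), and Sema3a, a repellent of nerves and vessels, was higher from 69.1, 77.7 and 73.9 CPM to 141, 137 and 144 CPM (log2 fold change 0.93 ± 0.06, adjusted p = 1.4e-15). Of 21 Eph receptors and ephrins 4 were higher and 3 lower, a share near the 24.8% of all genes tested that were called. Epha3 had 144, 163 and 161 CPM and 60.1, 53.7 and 65.8 CPM (log2 fold change -1.38 ± 0.07, adjusted p = 1.5e-16), Epha4 was lower (log2 fold change -0.83), and Epha7, another receptor of the limb mesenchyme, had 91.1, 97.7 and 101 CPM and 94.5, 88.8 and 102 CPM and was not called. Among 24 cadherins 11 were lower and 8 higher, with Cdh2, Cdh13 and Fat4 lower (log2 fold changes of -0.57, -1.53 and -0.72) and Cdh3, Pcdh8 and Pcdh10 higher (log2 fold changes of 1.66, 2.40 and 0.47).

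Collagen genes were mostly higher in ES–HLB. Of 35 tested 21 were higher, 2 were lower and 12 were not called, with a median log2 fold change of 0.43, where 12.4% of all genes were called in each direction. Col6a1, Col6a2 and Col6a3, the chains of the beaded filament, were higher together. Col6a1 had 193, 174 and 186 CPM in ES–FLB and 396, 357 and 393 CPM in the ES–HLBs (log2 fold change 1.05 ± 0.05, adjusted p = 5.2e-19), and Col6a2 and Col6a3 were higher (log2 fold changes of 0.82 and 0.51). Of the 7 basement membrane chains tested 6 were higher, with Col4a1 at 374, 367 and 401 CPM and 531, 508 and 519 CPM and Col4a5, Col4a6 and Col18a1 also higher (log2 fold changes of 0.94, 1.45 and 0.92). The cartilage chains Col2a1 and Col9a1 were higher as well, Col2a1 from 89.4, 87.7 and 99.7 CPM to 189, 178 and 203 CPM (log2 fold change 1.04 ± 0.06, adjusted p = 1.7e-16). Col11a1 and Col8a1 were the 2 lower genes (log2 fold changes of -0.38 and -1.15). Col3a1 had 3980.5, 3769.9 and 3731 CPM and 4082, 3839 and 4093 CPM and was not called, but was called higher without ES–HLB replicate 2 or ES–FLB replicate 1 (adjusted p of 0.0070 and 0.016 by limma). In the early limb buds the same genes were divided, with 7 higher and 7 lower of 31 tested, and Col6a1, Col6a2 and Col6a3 were lower in HLBs (log2 fold changes of -0.84, -0.81 and -1.57).

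The rest of the matrix was not one-sided, with 22 higher and 20 lower of 56 tested. Fmod, a small proteoglycan of tendon, had 0.597, 0.385 and 0.479 CPM in ES–FLB, close to the floor of 3 reads, and 24.7, 19.7 and 23.9 CPM in the ES–HLBs (log2 fold change 4.56 ± 0.19, adjusted p = 3.8e-20). Its relatives Lum, Bgn and Dcn were higher (log2 fold changes of 0.98, 0.90 and 0.47). With all 27 libraries in 1 model Lum and Dcn were not called (adjusted p of 0.20 and 0.47 by limma). Spon1 and Nid2 were higher too (log2 fold changes of 1.90 and 1.13). On the lower side, Thbs2, a thrombospondin, had 37.3, 38.8 and 35.6 CPM and 14.4, 12.6 and 16.5 CPM (log2 fold change -1.34 ± 0.10, adjusted p = 3.9e-13), and Vcan and Has2, which build the hyaluronan matrix, were lower (log2 fold changes of -0.52 and -0.50). Among 19 tested regulators and products of cartilage, bone and tendon 8 were higher, or 5 without ES–FLB replicate 1, and 3 lower. Sox9 and Sox5, the cartilage factors, were higher (log2 fold changes of 0.27 and 0.70), and the call of Sox9 was lost without ES–FLB replicate 1 or ES–HLB replicate 3 (adjusted p of 0.071 and 0.090 by limma). Runx2, a factor of bone, was lower, from 60.1, 64.3 and 64.7 CPM to 18.3, 23.0 and 21.6 CPM (log2 fold change -1.57 ± 0.08, adjusted p = 7.6e-17). Acan, Ibsp and Bglap, which mark mature cartilage and bone, stayed below the test in both types.

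Most genes of metabolism and stress moved in small steps, though some members differed by 2-fold or more. Of 22 glycolysis genes 7 were higher and 0 lower, with Slc2a3, a glucose transporter, at 83.0, 57.8 and 75.5 CPM in ES–FLB and 218, 233 and 209 CPM in the ES–HLBs (log2 fold change 1.62 ± 0.15, adjusted p = 0.0015) and Pfkp higher (log2 fold change 1.16). The count of higher genes was 14 with all 27 libraries in 1 model, 15 with the replicate block and 12 without ES–FLB replicate 1, the library with the highest ES–FLB value for many of these genes, among them Ldha with 516, 356 and 374 CPM against 688, 604 and 599 CPM in ES–HLB (adjusted p = 0.077). Ldha was called higher in these 3 settings and without the trend and robust options (adjusted p of 0.00072 with all 27 libraries and 0.038 without these options, by limma). In the early limb buds 15 of 21 glycolysis genes were lower in HLBs and 1 was higher. Of 22 hypoxia response genes 5 were higher and 1 was lower in ES–HLB, again near the 24.8% of all genes, and the higher ones were 8 without ES–FLB replicate 1, 13 with the replicate block and 3 without the trend and robust options. Cholesterol synthesis went the other way, with 13 of 25 genes lower and 0 higher at a median log2 fold change of -0.18 (4 lower without the trend and robust options of limma), whereas 17 of 25 were higher in the early HLBs and 0 lower. Hmgcs1, the first committed enzyme, had 523, 544 and 547 CPM and 449.6, 440.5 and 461 CPM (log2 fold change -0.26 ± 0.04, adjusted p = 6.8e-07).

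Of 81 cytosolic ribosomal protein genes 53 were higher and 0 lower, at a median log2 fold change of 0.11. These small differences did not hold their count, which was 20 without ES–FLB replicate 3, 27 without ES–HLB replicate 1 and 3 without the trend and robust options of limma. Of 75 respiratory chain genes 2 were higher and 1 was lower. Among 25 immediate early genes 11 were lower and 2 higher in ES–HLB, and the lower ones were 7 without replicate 1 of either type. Jun had 261, 235 and 278 CPM and 169, 164 and 183 CPM (log2 fold change -0.58 ± 0.05, adjusted p = 6.9e-10) and Klf4, which also stands on the pluripotency list, 93.0, 97.9 and 86.7 CPM and 38.8, 34.6 and 37.1 CPM (log2 fold change -1.32 ± 0.07, adjusted p = 3.7e-17). Targets of p53 had 8 higher and 2 lower of 21, with Pmaip1 higher (log2 fold change 1.95). Of 14 glucocorticoid response genes, a list chosen because both media held hydrocortisone, 6 were higher and 2 lower, with Klf9 and Zbtb16 higher (log2 fold changes of 1.36 and 1.32). Differences of cell cycle genes were small. Of 27 genes of G1 and S phase 8 were higher and 2 lower, with the helicase gene Mcm3 at a log2 fold change of 0.23. Of 22 genes of G2 and M phase 0 were higher and 7 lower, with Top2a and Ube2c at -0.18 and -0.22 on the same scale. Over all 55 cell cycle genes 9 were higher, or 4 without ES–FLB replicate 3, and 11 were lower, or 7 without ES–FLB replicate 1. Without the trend and robust options 3 were higher and 5 lower, and Mcm3, Top2a and Ube2c were not called (adjusted p of 0.062, 0.075 and 0.053 by limma). Of 26 amino acid stress genes 9 were higher and 2 lower, of 16 heat shock genes 5 and 1, and of 40 imprinted genes 12 and 9. Beside these and the p53 counts, 12.4% of all genes tested were higher and 12.4% lower. The remaining lists were smaller. Shares near that of all genes stood in 2 of them, with 3 higher and 0 lower of 11 Nrf2 targets and 2 and 1 of 10 YAP targets. There were 3 higher and 5 lower of 13 interferon and MHC class I genes. The fetal growth regulators of the Lin28, Igf2bp and Hmga families had 6 higher and 1 lower of 8, with Igf2bp1 higher (log2 fold change 0.30).

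Markers of other cell types differed between the sorted libraries. The mesenchyme list summed to 7283 to 7501 CPM in ES–FLB and 7409 to 7816 CPM in ES–HLB, ranges that overlapped, and of its 20 genes 6 were higher and 12 lower. The markers of blood summed to 35.8 to 40.7 CPM in ES–FLB and 131.0 to 212.4 CPM in ES–HLB, with 8 of 10 tested genes higher. When any 1 ES–HLB library was left out, 5 were called higher. A gene under 1 CPM in ES–FLB could pass the filter only through its ES–HLB values, so the count is a description. Embryonic globins led, with 0.836, 1.67 and 1.56 CPM of Hbb-bh1 in ES–FLB and 58.5, 50.0 and 33.6 CPM in the ES–HLBs (log2 fold change 4.68 ± 0.21, adjusted p = 2.1e-11). Globin genes are near copies of each other, so their reads may be shared. The leukocyte marker Ptprc was at 0 or 1 read in every library.

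Pluripotency markers were higher for 23 of 26 tested genes and lower for 1, at a median of 1.59. Only 9 of these genes were tested between the early limb buds, where 0 were higher and 5 lower in HLBs. Fgf4 and some others were under 1 CPM in every ES–FLB library and were kept for the test by their ES–HLB values, so the count is a description. Their sum was 203.2 to 204.1 CPM in ES–FLB and 315.2 to 367.5 CPM in ES–HLB. Pou5f1 had 5.13, 2.57 and 4.43 CPM and 12.03, 19.2 and 18.8 CPM (log2 fold change 1.93 ± 0.22, adjusted p = 9.6e-06), Nanog 2.15, 1.93 and 3.35 CPM and 6.89, 8.47 and 11.4 CPM (log2 fold change 1.67 ± 0.20, adjusted p = 4.2e-08), and Esrrb and Zfp42 were higher (log2 fold changes of 2.00 and 1.96). Part of the list, such as Lin28a, Lin28b, Trim71 and Sall4, is also transcribed in young limb buds, and Lin28a had 2.87, 2.95 and 4.19 CPM and 15.3, 17.6 and 17.4 CPM in vitro (log2 fold change 2.19 ± 0.16, adjusted p = 1.5e-13).

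The endoderm list held opposite movements. Apob, a lipoprotein of visceral endoderm and liver, had 35.3, 23.9 and 28.4 CPM in ES–FLB and 162, 233 and 187 CPM in the ES–HLBs (log2 fold change 2.71 ± 0.21, adjusted p = 0.0012), and Apoa1 and Ttr were higher (log2 fold changes of 1.89 and 1.13). Afp and Alb, fetal liver products, were lower, with Afp at 45.4, 42.6 and 51.5 CPM and 9.15, 15.3 and 13.9 CPM (log2 fold change -1.85 ± 0.16, adjusted p = 9.6e-06) and Alb at 5.13, 5.65 and 6.83 CPM and 0.125, 0.694 and 0 CPM. In all, 8 of the 19 tested were higher and 4 lower. The higher ones were 5 when any 1 ES–HLB library was left out, and the limit of the filter given for blood applies here too. Epithelial genes were higher for 13 of 26 and lower for 0, with sums of 245.2 to 328.1 CPM and 454.0 to 472.1 CPM. Krt19 had 4.66, 5.27 and 7.91 CPM and 29.7, 29.8 and 29.7 CPM (log2 fold change 2.26 ± 0.14, adjusted p = 2.5e-14), and Epcam had 16.6, 12.8 and 19.05 CPM and 13.2, 16.7 and 14.4 CPM and was not called. Of 20 endothelial genes 9 were higher and 0 lower, or 4 without ES–HLB replicate 2, with Pecam1 and Erg higher (log2 fold changes of 0.996 and 1.42).

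Neural markers were mixed, with 7 higher and 4 lower of 19 tested and summed ranges that overlapped. Zic2 had 2.27, 2.05 and 4.19 CPM in ES–FLB and 24.9, 24.8 and 27.6 CPM in the ES–HLBs (log2 fold change 3.03 ± 0.17, adjusted p = 7.7e-14), whereas the neurofilament genes Nefm and Nefl were lower (log2 fold changes of -1.40 and -1.55). Cardiac and smooth muscle genes were lower for 5 and higher for 1 of 17. Paraxial mesoderm and muscle genes had 3 higher and 4 lower of 11, with Meox2 higher (log2 fold change 1.63) and Msc lower (log2 fold change -2.57). Intermediate mesoderm and kidney genes had 3 higher and 6 lower of 12, and genes of the branchial arch Dlx code 6 higher and 3 lower of 14. Of the tail bud list only 5 of 18 genes were tested, of which Sp5, Sall4 and Lin28a were higher. These lists moved with the same contrast as the results above, and their part in the collagen, ribosomal protein, FGF and glycolysis results was not tested. In bulk RNA, fewer cells of a type and less RNA per cell cannot be told apart.

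**Figure D5:**
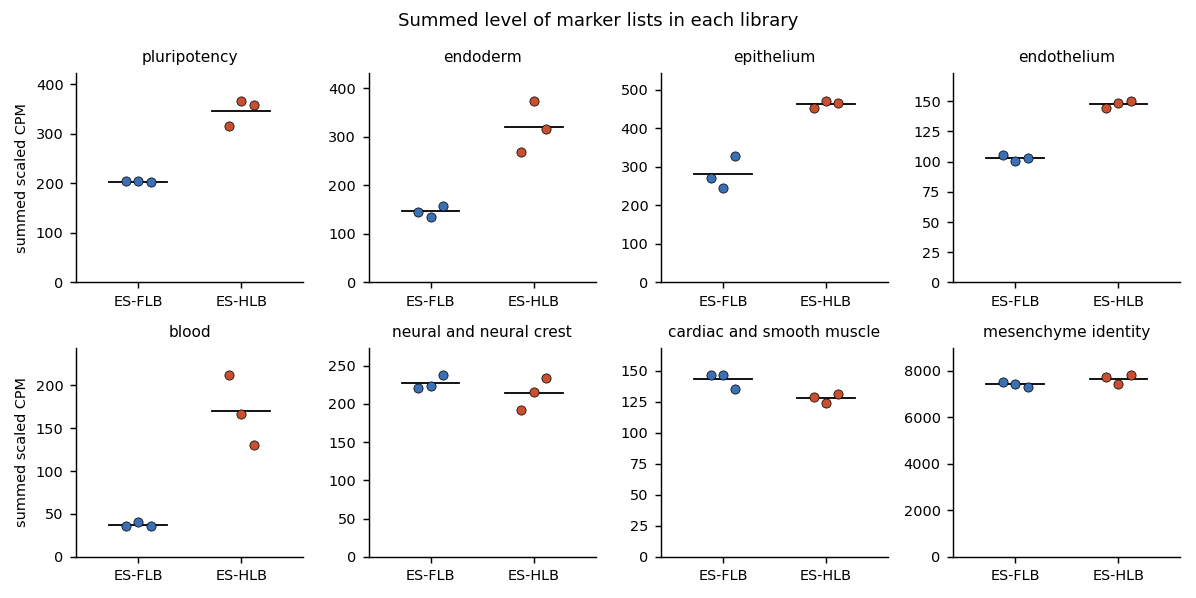
Summed scaled CPM of 8 marker lists in each ES–LB library, with points for libraries and a line at the mean, and axes that start at 0. The sums of blood, pluripotency, endoderm, epithelial and endothelial markers are higher in all 3 ES–HLB libraries, and those of the mesenchyme and neural lists overlap. Apob alone holds 162, 233 and 187 CPM of the endoderm sum in ES–HLB and 35.3, 23.9 and 28.4 CPM in ES–FLB. Of the 19 endoderm genes tested, 8 were higher and 4 lower.

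Against the early limb buds most Hox genes had the same direction in both contrasts, but often not the same size, as the difference between the contrasts passed its test for 11 of 21 genes of groups 1 to 8 and 9 of 13 of groups 9 to 13. Between early HLBs and early FLBs 2551 of 12573 genes were called (20.3%), 1161 higher (9.23%) and 1390 lower (11.1%) in HLBs. The count was 1398 without early FLB replicate 1, 1577 without early HLB replicate 3 and 1660 without early FLB replicate 3. Without the scaling between libraries that split was 1636 and 1012. Of 12107 genes tested in both comparisons 957 were called in both, 513 in the same direction and 444 in opposite directions. A further 1879 were called only in vitro and 1478 only in vivo. The difference of the contrasts was tested gene by gene over the 12 libraries and passed for 3063 of 13637 genes (22.5%). The 444 genes with opposite calls all passed it, which their opposite calls nearly imply. The early limb bud libraries hold an estimated 19642200 to 22142300 reads each, more than the ES–LB libraries, and they were not sorted.

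Of the 30 leading genes 24 were tested in vivo and 16 were called there, 12 in the same direction and 4 in the opposite one. The 12 were Tbx4, Pitx1, Tbx15, Shox2, Hoxa11, Hoxa11as, Tbx5, Hoxa5, Hoxb5, Hoxc4, Hoxc5 and Pappa2. Hoxa5 had log2 fold changes of -3.13 in vitro and -1.70 in vivo (adjusted p of the difference 1.2e-07), Hoxc5 of -2.91 in vitro and -3.66 in vivo, Hoxb5 of -2.702 and -2.76, and Shox2 of 2.36 and 1.98. In groups 1 to 8, 17 of 21 Hox genes were lower in the early HLBs and 0 higher, and in groups 9 to 13, 9 of 13 were higher and 1 lower, the last being Hoxd9. For Tbx5 and Tbx4 the in vivo differences were wider, at -6.37 and 6.78, and both differences between the contrasts passed the test (adjusted p of 4.6e-07 and 0.0022). The 4 leading genes with opposite calls were Rxfp2, Foxf2, Rspo1 and Kcnk3. Rxfp2 and Kcnk3 were low in vivo, with means of 0.651 and 3.56 CPM in early FLBs and 1.96 and 0.431 CPM in early HLBs. Foxf2 averaged 0.408 ± 0.457 CPM in early FLBs and 1.79 ± 0.0580 CPM in early HLBs (SD, n = 3), a log2 fold change of 1.46 in vivo against -2.696 in vitro (adjusted p of the difference 1.6e-06). Rspo1 averaged 4.51 ± 1.55 CPM and 13.8 ± 0.128 CPM in early FLBs and HLBs, higher in HLBs (log2 fold change 1.55), where ES–HLB was lower (adjusted p of the difference 1.8e-10).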

How the data were processed

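Messenger RNA of 27 libraries was measured by RNA-seq, 3 of each of 9 groups, and this comparison uses 3 ES–HLB and 3 ES–FLB libraries, with 3 early FLB and 3 early HLB libraries as reference. The E10.5 FLB and HLB libraries were used as a second reference. Per the labels and methods of the study, RNA came from sorted cells of pooled day 9 aggregates or from dissected embryonic tissue, a stranded kit was used, and reads were aligned to mm10 with HISAT2 2.0.4. The authors deposited CPM per gene, that is, read counts divided by the library total on a fixed scale. The submitters' processing notes also name FastQC 0.11.5, Cufflinks 2.1.1 and edgeR 3.16.2, and the strand setting of the counting is not given in the sources used here. The worth of 1 read in each library was estimated from the spacing of low values, while fractional values kept whole reads from being recovered for all libraries.

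The CPM were scaled between the 27 libraries by a trimmed mean of log ratios (30% of ratios and 5% of intensities trimmed), and limma 3.58.1 (R 4.3.3, trend and robust) was run two-sided on log2(CPM + 0.5) of the genes that reached 1 CPM in 3 libraries of the fit, with Benjamini-Hochberg adjustment over all genes tested and a threshold of 0.05. The early limb buds were tested alone in the same way, and the difference of the contrasts in a fit of the 12 libraries. Gene positions and promoters come from RefSeq (GRCm38.p6), and 271 listed genes had no position there. Exon overlaps come from the GENCODE annotation of GRCm38.

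Members and gene lists were chosen with earlier results of these data known. Named by rank are the 15 genes of each direction with the largest log2 fold change among called genes with at least 16 CPM in the higher type and no overlap. From each list, values are given for called members with large changes and for members at either end of a pathway. Other members, and the genes with opposite calls in vivo, were chosen after their values were seen. The steps were tested on simulated data with known changes. Alternatives were other scalings, added constants, filters, variance settings, a block, other references and leaving out single libraries. Exon overlaps on the opposite strand make Hoxa11, Hoxb3, Mab21l2, Rarb, Fgf15, Nefl and Ccnd1 uncertain in level. The same holds for Notum, Spry1, Ube2c, Msc, Gas1 and Hand2, where an opposite gene shares 19.6% to 29.4% of the exon bases. Smaller overlaps lie in other named genes. Some members of the lists are counted with them but are not reported here by name.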

Additional observations from a re-analysis of the deposited data

Results flagged for a closer look

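Of the genes called in both comparisons with opposite signs, 12 are given here, each with a difference between the contrasts past the threshold (limma, adjusted p below 0.05, 3 libraries in each of 4 groups), which opposite calls nearly imply and which is no further support. In each the ES–LB difference in log2 fold change and the early limb bud difference point opposite ways.

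Rxfp2, the relaxin-family receptor, was lower in ES–HLB (-4.32) and higher in the early HLBs (1.06), a gap of -5.37. Its in vivo side rests on low levels, with means of 0.651 CPM in early FLBs and 1.96 CPM in early HLBs (adjusted p = 0.023 by limma). Foxf2 (-2.696 in vitro and 1.46 in vivo) and Rspo1 (-2.20 and 1.55) ran the same way, with gaps of -4.16 and -3.75. The hedgehog genes Gli1 and Grem1 had gaps of -3.59 and -3.34. Sh3gl3, an endophilin (-1.29 and 1.37), and Crispld2, a secreted protein of mesenchyme (-1.34 and 1.28), had gaps of -2.66 and -2.62.

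The other 5 genes were higher in ES–HLB and lower in the early HLBs. Kcnk3 had 2.64 in vitro and -2.01 in vivo, a gap of 4.65. Smoc2, a matrix protein of BMP signalling, had 0.23 and -3.55, a gap of 3.77, most of it from the embryonic side. Its in vitro call was lost without ES–HLB replicate 3, ES–FLB replicate 1 or ES–FLB replicate 2 (adjusted p of 0.16, 0.054 and 0.074 by limma). Krt19 had 2.26 and -1.21 with a gap of 3.48, Slc2a3 1.62 and -0.91 with a gap of 2.53, and Prtg, a receptor of the early mesoderm and neural plate, 0.93 and -1.76 with a gap of 2.69. The early limb buds were unsorted, and the text of the study puts the FLBs at an earlier stage than the HLBs. The part of either in these gaps was not tested.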

How the results depend on the processing

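The main count of 3256 genes called between ES–HLB and ES–FLB stayed within 1.5 times under each alternative run. It was 3293 for the CPM as deposited, 3290 with median-of-ratios scaling, 3213 and 3281 with 0.1 and 1 added before the logarithm, 3363 with no filter, 2672 with a filter at 5 CPM, 2736 with all 27 libraries in 1 model, 2287 without the trend and robust options of limma, and 2612 to 2769 without 1 library. With limma voom on estimated reads, chosen after seeing the data, it was 3249. The genes 2-fold or more apart fell to 173 higher and 139 lower with the filter at 5 CPM, which tests fewer low genes. The count tests planned for whole reads were not run, since the values are CPM and whole reads could not be recovered from them for all libraries. Replicate numbers do not say that libraries were paired. With the replicate block 3827 genes were called, same-numbered ES–HLB and ES–FLB libraries correlated at 0.042, 0.068 and 0.064 in their deviations from the group means, and each correlated best with its own number, which is a hint from the data and not the design. Between the early limb buds the replicate block gave 2337 calls, and without 1 library the count was 1398 to 2309, with 654 to 982 higher and 730 to 1327 lower. The lowest counts were those without early FLB replicate 1 (1398), early HLB replicate 3 (1577) and early FLB replicate 3 (1660), against 2551 with all 6. The difference between the contrasts passed for 3149 genes with the CPM as deposited, 2672 with the filter at 5 CPM, 3111 with 1 added, 2629 to 2706 without 1 library and 2927 with the E10.5 limb buds as reference, of which 1200 were shared with the 3063. Its split between genes more and less positive in vitro was 1689 and 1374, and 1402 and 1747 with the CPM as deposited. In that E10.5 comparison 1 HLB library has 8489 values set to missing, and of the genes with opposite calls Prtg changed sign (-0.13, adjusted p = 0.59 by limma). Of 222 genes named here, 182 kept direction and call under each of the 16 alternatives in which they were tested, and 25, Hand2 among them, were no longer called with all 27 libraries in 1 model. The 25 also held Lum, Dcn, Crabp1, Rbp4, Stra6, Afp, Ttr, Alx4, Msx2, Prrx1, Tbx20, Fst, Notum, Pcdh10 and Col6a3. Genes near no difference changed sign without 1 library. Their log2 fold changes ranged from -0.27 to 0.0054 for Epcam, -0.075 to 0.021 for Epha7, -0.0087 to 0.017 for Fgfr1, -0.46 to 0.021 for Hoxd3, -0.27 to 0.20 for Hoxd4 and -0.030 to 0.28 for Hoxd9, none of them called. Counts per list are small numbers, and many moved by over 1.5 times when 1 library was left out. The filter of 1 CPM in 3 libraries was kept in those fits and took some low genes out of the test. Other causes were not tested.

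The depth of 6569890 to 7879910 estimated reads limits genes under about 1 CPM, which were not tested. P-values measure the spread between 3 libraries of each type.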
